A study of Mus musculus with 4 samples.

Results

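Quiescence and cell cycle inhibitor genes were followed in hematopoietic stem cells sorted from the bone marrow of control and conditional Ddx21 knockout mice. Ddx21 encodes a nucleolar DEAD box RNA helicase. The 10 genes were named by function, as inhibitors of cyclin-dependent kinases, pocket proteins and quiescence factors; the rule uses no measured value, but earlier results of these data were known when it was written. They are Cdkn1b, Cdkn1c, Cdkn2c, Cdkn2d, Rb1, Rbl1, Rbl2, Foxo1, Foxo3 and Txnip. The rule leaves out Cdkn1a, the inhibitor p21, and Btg2, because both are p53 targets; their values are given further below. Ensembl gene IDs were paired with GENCODE mouse symbols, and values were found for 9 of the 10, among 12390 genes in all. Foxo1 was not analysed here.

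There were 4 libraries, 2 per group. Control libraries (genotype label WT, titles Ddx21_fl) came from mice with floxed Ddx21 alleles, which the series' design text spells Ddx211fl/fl. Knockout libraries (genotype label KO, titles Ddx21_CKO) came from mice with the same floxed alleles plus CAG-CreERT2, a tamoxifen-dependent Cre recombinase under the broadly active CAG promoter, so that recombination is not limited to blood cells. The sort gate was Lin-Sca-1+c-Kit+CD48-CD150+, and amplified cDNA libraries were prepared by Smart-Seq V4. The sources used here do not give age, sex, tamoxifen treatment or the time after it. Whether libraries of a group stem from different mice is not stated either, so p-values reflect only how far these samples spread, which may be technical.

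Cells leave quiescence when cyclin D with CDK4 or CDK6, and then cyclin E with CDK2, phosphorylate the pocket proteins and free E2F transcription factors. The CIP/KIP proteins p27 (Cdkn1b) and p57 (Cdkn1c) bind cyclin-CDK complexes, while the INK4 proteins p18 (Cdkn2c) and p19 (Cdkn2d) bind CDK4 and CDK6. The pocket proteins RB (Rb1), p107 (Rbl1) and p130 (Rbl2) hold E2F target genes silent, p130 mainly in resting cells and p107 in cycling ones. FOXO factors, kept out of the nucleus by AKT signalling, and TXNIP, an alpha-arrestin that binds thioredoxin and limits glucose uptake, are both needed for mouse hematopoietic stem cell quiescence.

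The libraries held between 43218009 and 62871440 reads, recovered from the deposited RPKM values (reads scaled by transcript length and by the total reads of the library). Ddx21 was read at 11.0 and 12.1 RPKM in control and at 6.20 and 6.60 RPKM in knockout, a ratio of means of 0.555. Its transcript was thus still present in the knockout libraries. Ddx21 was lower in both of them but not past the threshold (log2 fold change -0.76, SE 0.30, limma adjusted p = 0.158). After TMM-type rescaling it stood at -1.10 (adjusted p = 0.102), and voom on recovered reads called it lower (-1.24, adjusted p = 0.0401), as did limma without knockout replicate 1 (-0.72, adjusted p = 0.0178). Of 10 stem cell markers 9 had values, among them Ly6a, which encodes Sca-1 (83.2 to 165 RPKM), Kit (44.0 to 64.5 RPKM), Slamf1, which encodes CD150 (3.85 to 10.3 RPKM), and Hoxb5 (0.486 to 1.53 RPKM). Of the 8 tested, limma called 2 higher and 0 lower. Knockout libraries lay above both controls for all 8, where 55.5% of all tested genes did. Their median log2 fold change was 0.62, beside 0.31 over all tested genes. After rescaling the median was 0.30, and neither limma nor voom called any of them. The same libraries held abundant neutrophil and granule transcripts: the 10 markers of that list summed to 68900 and 71500 RPKM in control and to 48700 and 31400 RPKM in knockout. Osteoblast and matrix markers, 8 genes, summed to 453 and 263 RPKM in control and to 6310 and 1580 RPKM in knockout. Limma called all 10 neutrophil markers lower and 7 of the 8 osteoblast markers higher. Of all tested genes it called 0.86% lower and 3.33% higher. After rescaling neither limma nor voom called any gene of the neutrophil and osteoblast lists, whose median log2 fold changes were then -1.36 and 2.71. Of 7 erythroid markers 1 fell, Hbb-bs, and 0 rose, with a list median of 0.30. Of 4 tested lymphoid markers 1 fell, Nkg7, and 0 rose. The other 3, the B cell genes Cd79a, Cd79b and Ighm, had log2 fold changes of 0.81, 0.60 and 0.41 and were not called. Lymphoid markers thus did not move in 1 direction. The level of a gene in these bulk samples cannot be given to stem cells alone, and fewer cells of a type cannot be told apart from less RNA per cell. The median log2 difference from the control mean over all tested genes was 0.12 in knockout replicate 1 and 0.50 in knockout replicate 2, so a gene that moves with the bulk of the table is higher in the knockout libraries, above all in replicate 2.

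Of the listed inhibitors, from which Cdkn1a was left out, Txnip alone passed the test. It rose from 77.6 ± 12.7 to 190 ± 36.7 RPKM (SD, n = 2 per group), a ratio of means of 2.45. The listed CIP/KIP and INK4 genes and Rb1 had log2 fold changes of 0.19 to 0.36, on either side of the 0.31 of the median gene. Foxo3 and Rbl2 were higher in both knockout libraries without passing the threshold, and Rbl1 had the same mean level in both groups to within its spread. Of the 9 genes with values, 8 averaged 1 RPKM or more and were tested. One of the 8 was called higher by limma at a Benjamini-Hochberg adjusted p under 0.05, in a comparison that called 3.33% of all 11742 tested genes higher. None was called lower, where 0.86% of all genes were; before adjustment, 3 were higher and 0 lower at p under 0.05, where 1620 and 288 of all 11742 genes were. The median log2 fold change of the 8 was 0.35, beside 0.31 over all tested genes. Knockout libraries lay above both control libraries for 5 of the 8 and overlapped them for 3, where 55.5% of all tested genes lay above and 7.38% below, so the count of non-overlapping inhibitors is near the background. Other settings called 0 inhibitors higher after TMM-type rescaling or quantile normalization (0% of all genes) and by voom on rescaled reads (0.29%), and 2 without the mean-variance trend (3.18%). Without control replicate 1, control replicate 2 or knockout replicate 2 the count was 1 (0.278%, 0.226% and 0.866% of all genes), and without knockout replicate 1 it was 5 (54.3%).

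**Figure D1:**
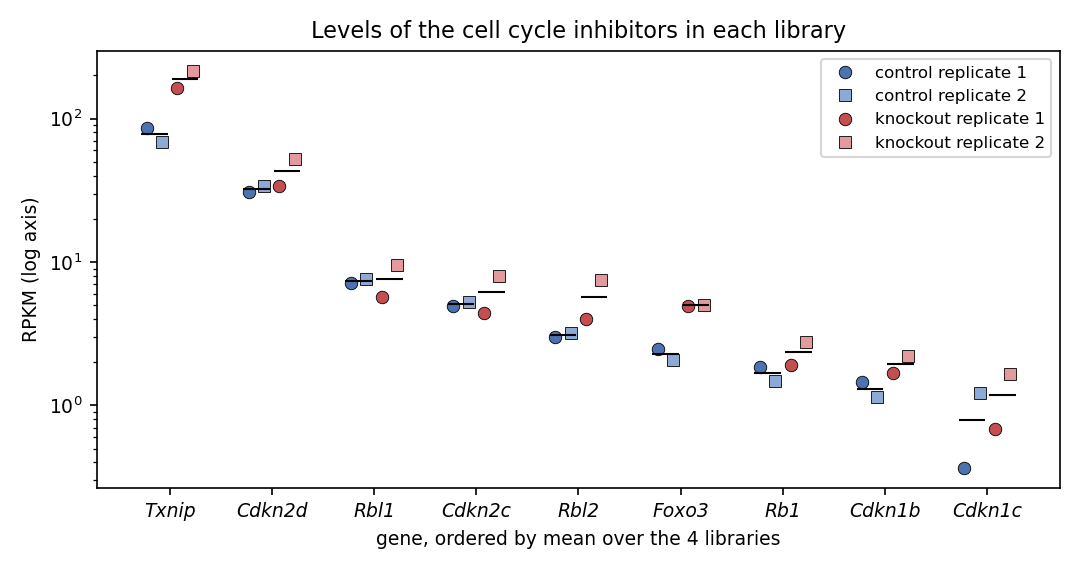
RPKM of each inhibitor gene (log axis) in the 2 control (blue) and 2 knockout (red) libraries, with black lines at the group means, genes ordered by their mean over the 4 libraries. Txnip stands highest, at 68.7 to 216 RPKM, and Cdkn1c lowest, at 0.366 to 1.66 RPKM; all 9 genes have their highest value in knockout replicate 2.

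RPKM is scaled by transcript length, here that of the longest annotated transcript, so levels of different genes can be set beside each other only roughly. Which transcripts were present was not examined, and overlapping genes on the opposite strand may add reads. Averaged over the 4 libraries, Txnip stood at 134 RPKM, followed by Cdkn2d at 37.7, Rbl1 at 7.52, Cdkn2c at 5.65, Rbl2 at 4.41, Foxo3 at 3.63, Rb1 at 2.0, Cdkn1b at 1.62 and Cdkn1c at 0.986 RPKM. Txnip lay above Cdkn2d, and Cdkn2d above Rbl1, in 4 of 4 libraries with ranges that did not meet. From Rbl1 down to Cdkn1c the range of each gene over the libraries overlapped that of the next. Compared within a library, Rbl1 exceeded Cdkn2c, Cdkn2c exceeded Rbl2, Foxo3 exceeded Rb1 and Rb1 exceeded Cdkn1b in 4 of 4. Rbl2 exceeded Foxo3, and Cdkn1b exceeded Cdkn1c, in 3 of 4, and in knockout replicate 1 Foxo3 also exceeded Cdkn2c. All 9 genes were highest in knockout replicate 2, as were 78.6% of all tested genes.

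Txnip (ENSMUSG00000038393, chromosome 3, 96557957 to 96561883, plus strand, mm10), whose protein restrains thioredoxin and glucose transporters, was read at 86.6 and 68.7 RPKM in control replicates 1 and 2. In knockout replicates 1 and 2 it was read at 164 and 216 RPKM. Both knockout libraries lay above both control libraries, and Txnip ranked above 92.0% to 97.4% of tested genes in each. Its log2 fold change was 1.28 (SE 0.17, limma adjusted p = 6.43e-11), and 0.86% of tested genes had a larger one. After the median shift of each knockout library was taken off, Txnip exceeded the control mean by 0.96 and 0.97 log2 units in replicates 1 and 2. Without each library in turn the adjusted p was at most 0.0463; each such fit has 1 library in a group, which is assumed to vary like the other group, and 1 residual degree of freedom. It was lost when the libraries were rescaled by a trimmed mean of M values (TMM-type), where the log2 fold change was 0.90 (SE 0.19, adjusted p = 0.154); limma then called 0 of all genes in either direction (855 higher and 942 lower at p under 0.05 before adjustment). The count-based voom fit called 34 higher and 13 lower and gave Txnip an adjusted p of 0.148. Summed osteoblast markers were highest in knockout replicate 1 and Txnip in knockout replicate 2; the part of other cell types in its rise was not tested. An antisense gene, Gm15441, shares 606 exonic bases with Txnip, and the sources used here do not say whether counting used strand.

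The sequence upstream of Txnip is shown because its known response elements can be seen in it. The 250 bases before the transcription start (RefSeq, GRCm38.p6, chr3:96557707-96557956, plus strand) are given 5′ to 3′, with capitals for matches to the FOXO motif TGTTTAC, here on the reverse strand, and to the E-box variant CACGAG.
Txnip: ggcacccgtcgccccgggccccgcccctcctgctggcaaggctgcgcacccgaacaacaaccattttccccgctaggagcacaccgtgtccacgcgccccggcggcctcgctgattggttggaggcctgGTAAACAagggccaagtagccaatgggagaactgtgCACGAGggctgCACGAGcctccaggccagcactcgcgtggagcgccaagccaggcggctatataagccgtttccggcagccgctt
The CACGAG copies lie from -85 to -80 and from -74 to -69, counted from the start site with -1 as the last base before it, and the FOXO match lies from -121 to -115. A pair of E-box-like motifs at this spacing is the form of the carbohydrate response element, which MondoA and ChREBP bind with their partner MLX. CACGAG was found on either strand in 5.37% of 32851 promoter windows of this length, and more than one copy in 0.262%. The paired form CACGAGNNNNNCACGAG, searched for after the Txnip sequence had been read, was found in 1 of the 32851, that of Txnip. TGTTTAC was found in 3.17%. A match is a description of the letters and does not show that a factor was bound.

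Genes that act with Txnip were read from a list of 15 thioredoxin, alpha-arrestin, glucose transporter and glucose-sensing genes, of which 13 were tested. Of these 1 rose and 0 fell, where 3.33% of all tested genes were called higher. The list median was 0.42 on the log2 scale, beside 0.31 over all tested genes, and voom on rescaled reads called 0. The gene that rose was Arrdc4, another alpha-arrestin and a known MondoA target, from 3.76 and 3.01 RPKM in control to 6.05 and 11.6 RPKM in knockout (log2 fold change 1.11, SE 0.33, limma adjusted p = 0.0254). Its groups did not overlap, and after rescaling the log2 fold change was 0.78. The list had 0 calls without control replicate 1, control replicate 2 or knockout replicate 2, and 9 without knockout replicate 1. Txn1, the cytosolic thioredoxin, stood between 398 and 480 RPKM, and Mlxip, which encodes MondoA, between 4.49 and 7.40 RPKM, neither past the threshold (adjusted p = 0.570 and 0.409). The window upstream of Arrdc4 (chr7:68749239-68749488, minus strand, same build) is printed beside that of Txnip for the E-box, CACGTG, in capitals.
Arrdc4: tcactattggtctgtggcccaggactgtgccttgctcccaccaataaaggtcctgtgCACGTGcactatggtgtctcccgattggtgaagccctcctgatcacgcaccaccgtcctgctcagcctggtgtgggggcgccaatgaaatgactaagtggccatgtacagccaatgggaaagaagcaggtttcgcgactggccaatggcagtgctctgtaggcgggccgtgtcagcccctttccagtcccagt
It holds 1 copy of CACGTG, a motif found in 6.02% of windows, and none of CACGAG.

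**Figure D2:**
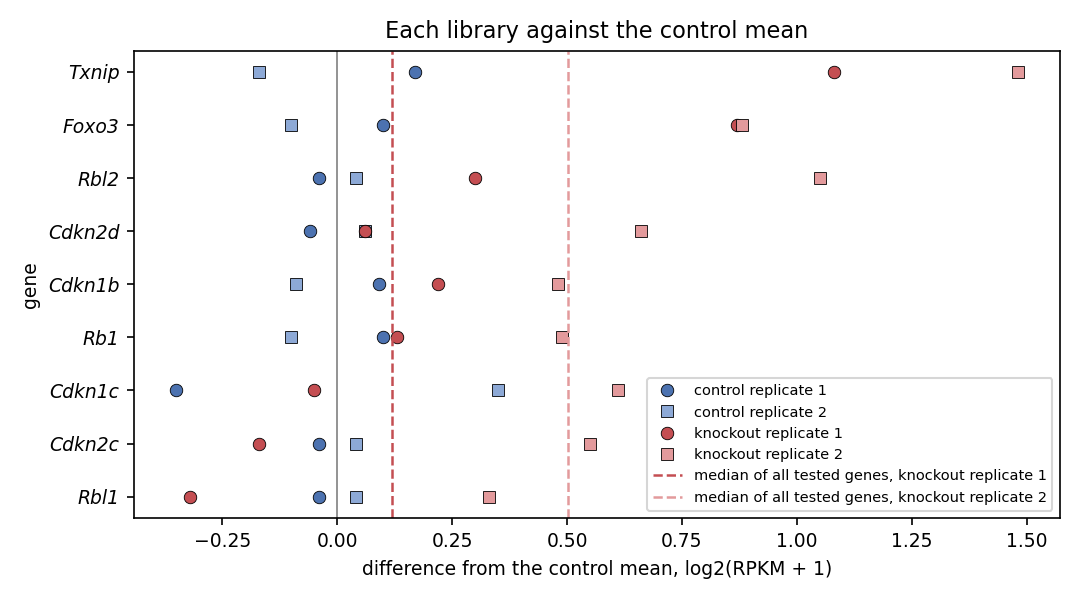
Difference of each library from the control mean, on the log2(RPKM + 1) scale, for the 9 genes with values; dashed lines mark the median of all tested genes in knockout replicates 1 (0.12) and 2 (0.50). Txnip, Foxo3 and Rbl2 lie right of the dashed line of their library in both knockout replicates, and Rbl1 lies left of it in both.

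Foxo3 (chromosome 10, 42181841 to 42276755, minus strand), a transcription factor of stress resistance and quiescence, was read at 2.49 and 2.06 RPKM in control and at 4.96 and 5.02 RPKM in knockout. Its groups did not overlap, and the knockout libraries were alike. The log2 fold change was 0.87 (SE 0.34, limma adjusted p = 0.143), not past the threshold, and 2.96% of tested genes had a larger one. The SE came from the spread of all genes at that level, not from the close knockout values. Without the trend of variance over level the adjusted p was 0.0427. Relative to the median shift Foxo3 exceeded the control mean by 0.75 and 0.38 log2 units in the knockout libraries. After rescaling its log2 fold change was 0.58 (adjusted p = 0.215).

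Of 20 tested targets of FOXO factors 5 rose and 0 fell; the list median was 0.41 on the log2 scale. Pik3ip1, an inhibitor of PI3 kinase, rose from 32.3 and 27.5 to 46.3 and 60.0 RPKM (log2 fold change 0.80, SE 0.20, limma adjusted p = 0.00438). Pink1, a kinase of mitochondrial quality control, rose by 0.82, and Sesn1, a sestrin that is also a p53 target, by 0.88 on the log2 scale. The other 2, named after their values were seen, were Gabarapl1, of autophagosomes, and the sphingosine phosphate receptor gene S1pr1. Knockout libraries lay above both controls for 16 of the 20, where 55.5% of all tested genes did, and 3.33% of all genes were called higher. The remaining 15 were not called, among them the antioxidant genes Sod2 (log2 fold change 0.20) and Cat (0.60, adjusted p = 0.0980). After rescaling the median was 0.17, and neither limma nor voom called any of the 20. The count of 5 was 0 without control replicate 1, control replicate 2 or knockout replicate 2, and 12 without knockout replicate 1. Of 15 upstream regulators, such as PI3 kinase subunits and AKT kinases, 0 were called by limma or by voom on rescaled reads (1 at an unadjusted p under 0.05; 11 higher and 1 lower without knockout replicate 1), with a median of 0.41; Pik3cd (0.52, limma adjusted p = 0.266) and Inpp5d (0.43, adjusted p = 0.345) had the smallest p-values.

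None of the pocket protein genes passed the threshold. Rbl2 (chromosome 8, 91070057 to 91123844, plus strand) was read at 2.98 and 3.19 RPKM in control and at 4.02 and 7.45 RPKM in knockout. The groups did not overlap, and the knockout libraries lay far apart. Its log2 fold change was 0.67 (SE 0.34, limma adjusted p = 0.301), not past the threshold. Without knockout replicate 2 it was 0.30. Rbl1 (chromosome 2, 157145893 to 157204534, minus strand) was read at 7.19 and 7.61 RPKM in control and at 5.72 and 9.55 RPKM in knockout replicates 1 and 2. The knockout values lay on either side of the control values, and the log2 fold change was 0.00 (SE 0.31, adjusted p = 0.993) on the deposited scale and -0.34 (SE 0.13, adjusted p = 0.312) after rescaling. Relative to the median shift Rbl1 was 0.44 and 0.17 log2 units below the control mean in knockout replicates 1 and 2.

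The ratio of Rbl2 to Rbl1 does not depend on how libraries are scaled. It was 0.414 and 0.419 in control and 0.702 and 0.780 in knockout. The groups did not overlap, and the control libraries were nearly equal. This ratio was chosen after the values had been seen, so no test was made. Of 5 ratios computed between inhibitors, 3 did not overlap. The share of non-overlapping ratios among other pairs of genes was not computed, so no result is read from that count. Rb1 (chromosome 14, 73183673 to 73325822, minus strand) was read at 1.86 and 1.49 RPKM in control and at 1.92 and 2.75 RPKM in knockout (log2 fold change 0.31, SE 0.31, limma adjusted p = 0.524), level with the median shift in both knockout libraries. Rb1 shares 488 exonic bases with Rcbtb2, and Rbl2 shares 693 with Aktip, both on the opposite strand, so reads there cannot be told apart without strand. Aktip stood at 2.92 and 3.13 RPKM in control and at 4.06 and 5.16 RPKM in knockout. Its part in the Rbl2 values and in the ratio of Rbl2 to Rbl1 was not tested.

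The window before the start of Rbl1 (chr2:157204535-157204784, minus strand, same build) is printed because E2F factors are known to act on this gene; capitals mark a match to TTTCGCGC.
Rbl1: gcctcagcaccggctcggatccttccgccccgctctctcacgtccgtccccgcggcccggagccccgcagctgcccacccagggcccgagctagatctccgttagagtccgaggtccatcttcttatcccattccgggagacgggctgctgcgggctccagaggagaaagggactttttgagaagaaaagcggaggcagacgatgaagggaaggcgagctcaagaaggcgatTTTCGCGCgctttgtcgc
The match lies from -18 to -11. Letters of TTTGGCGC, TTTCCCGC or TTTCGCGC were found on either strand in 1.53% of windows, and in no other window printed or matched for the inhibitors. Promoter windows were matched for 8 of the 10 genes, not for Cdkn1c or Rb1.

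Genes under pocket protein control gave no call. Of 25 E2F and DREAM target genes of S phase and mitosis 0 were called higher or lower by limma (4 higher without knockout replicate 1), and 0 at an unadjusted p under 0.05 or by voom on rescaled reads. Their median log2 fold change was 0.00, and 1 of the 25 lay above the 0.31 of all tested genes. Ccnb1, cyclin B1, stood at 106 and 104 RPKM in control and at 70.5 and 113 RPKM in knockout (log2 fold change -0.23, adjusted p = 0.443). After rescaling the median of the list was -0.38, with 24 of 25 below 0. Of 17 E2F, DP and MuvB/DREAM partner genes 0 were called (9 without knockout replicate 1, 3 higher at an unadjusted p under 0.05, 0 by voom), with a median of 0.27. The smallest p-values there belonged to Tfdp2 (0.70, adjusted p = 0.250) and Lin37 (0.52, adjusted p = 0.259).

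The INK4 genes were read at 4.44 RPKM or more in all libraries. Cdkn2d (chromosome 9, 21288410 to 21291407, minus strand) stood at 31.0 and 34.0 RPKM in control and at 33.8 and 51.9 RPKM in knockout. Knockout replicate 1 lay between the controls and replicate 2 above them (log2 fold change 0.36, SE 0.21, limma adjusted p = 0.356). Cdkn2c (chromosome 4, 109660876 to 109667189, minus strand) stood at 4.94 and 5.29 RPKM in control and at 4.44 and 7.93 RPKM in knockout, on either side of the controls (log2 fold change 0.19, SE 0.33, adjusted p = 0.696). After rescaling both were at or below 0, at -0.02 and -0.14. The ratio of Cdkn2d to Cdkn2c was 6.27 and 6.42 in control and 7.62 and 6.54 in knockout, without overlap and not tested. Of the 13 cyclin, CDK and activator genes that the inhibitors bind or oppose 0 were called (5 without knockout replicate 1, 1 higher at an unadjusted p under 0.05, 0 by voom), with a median of 0.25. Ccnd2, cyclin D2, stood between 44.3 and 69.6 RPKM (0.38, adjusted p = 0.307) and Ccne1, cyclin E1, between 12.9 and 23.1 RPKM (0.45, adjusted p = 0.331). Cdk4 and Cdk6, the kinases of the INK4 proteins, stood at 327 to 366 and 39.9 to 55.5 RPKM.

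The listed CIP/KIP genes, Cdkn1b and Cdkn1c, had the lowest mean levels of the inhibitors. Cdkn1b (chromosome 6, 134920401 to 134925513, plus strand) stood at 1.45 and 1.15 RPKM in control and at 1.68 and 2.21 RPKM in knockout, from 332 to 438 reads a library. The groups did not overlap, and the log2 fold change of 0.35 (SE 0.29, limma adjusted p = 0.472) lay 0.04 above that of the median gene. Of 8 genes of p27 degradation 0 were called (4 higher and 1 lower without knockout replicate 1), at an unadjusted p under 0.05 also 0 and by voom 0, with a median of 0.21. Cks1b, the cofactor with which SKP2 recognises p27, stood at 408 and 409 RPKM in control and at 358 and 316 RPKM in knockout, lower in both (-0.28, adjusted p = 0.358), and Ubac1 had a log2 fold change of 0.52 (adjusted p = 0.313).

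Cdkn1c (chromosome 7, 143458339 to 143461050, minus strand) is an imprinted gene known as a marker of quiescent mouse stem cells. It stood at 0.366 and 1.22 RPKM in control and at 0.689 and 1.66 RPKM in knockout. The groups overlapped, and the libraries of a group lay further apart than the group means. Control replicate 1 rested on 39 reads, with an exact Poisson 95% interval of 0.260 to 0.501 RPKM, and control replicate 2 on 147 reads, with an interval of 1.03 to 1.44 RPKM. Such intervals cover counting error only, since reads of amplified libraries are not independent molecules. Its mean of 0.986 RPKM fell short of the minimum for the test; without that minimum the log2 fold change was 0.28 (SE 0.27, limma adjusted p = 0.505). In control replicate 1 it ranked above 0.230% of tested genes and in control replicate 2 above 12.3%. Among 7 tested imprinted genes 1 rose and 0 fell, where 3.33% of all tested genes were called higher. Their median was 0.61, beside 0.31 over all tested genes. The gene that rose was Slc22a18, a neighbour of Cdkn1c on chromosome 7. It went from 1.01 and 1.72 to 3.55 and 4.81 RPKM (log2 change 1.14, SE 0.32, limma adjusted p = 0.0167). After rescaling its log2 change was 0.86. Kcnq1ot1, the noncoding RNA of that domain, stood between 0.760 and 1.59 RPKM and was not called. Voom on rescaled reads called 0 of the 7, as did limma when a control library or knockout replicate 2 was left out; it called 6 without knockout replicate 1.

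**Figure D3:**
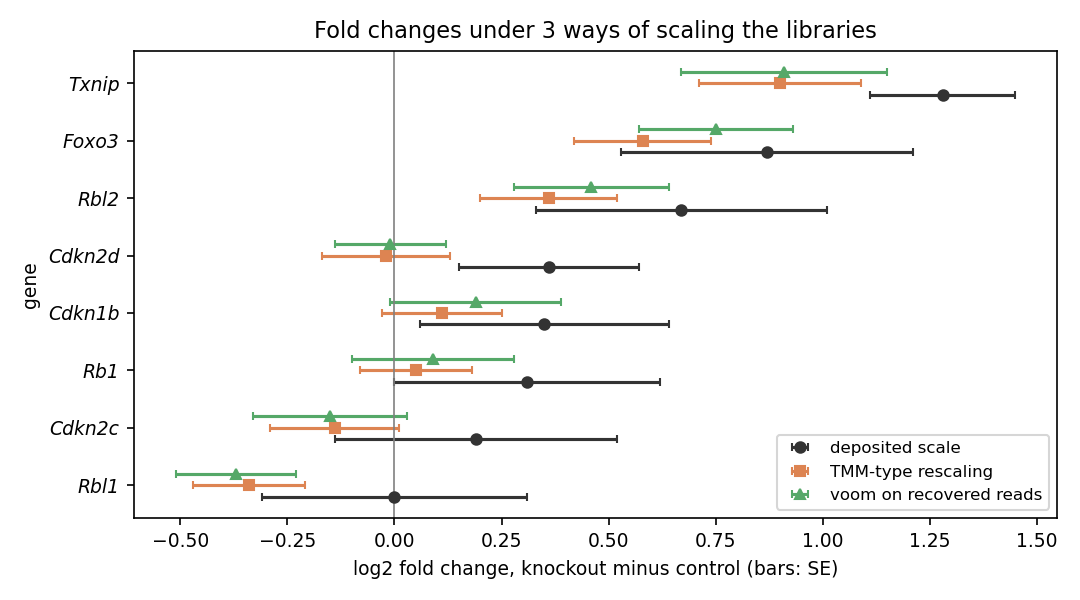
Log2 fold change (knockout minus control, bars are SE) of the 8 tested inhibitors on the deposited scale, after TMM-type rescaling and by voom on recovered reads. Txnip, Foxo3 and Rbl2 stay above 0 under all 3 scalings, while Rbl1 moves from 0.00 to -0.34 and -0.37 and Cdkn2c from 0.19 to -0.14 and -0.15.

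Other brakes on the cycle had the same median log2 fold change as the inhibitors, 0.35. On the log2(RPKM + 1) scale of the test, Cdkn1a alone of that list changed by more than Txnip. By ratio of means Tob1 did too, at 2.89 against 2.45 for Txnip. Cdkn1a, the p53-induced inhibitor p21, rose from 2.61 and 2.10 to 31.5 and 64.3 RPKM, and Btg2, another p53 target, from 13.4 and 9.60 to 16.9 and 28.3 RPKM (log2 fold changes 3.78 and 0.89, limma adjusted p = 2.46e-39 and 0.0148). On a list of 10 such genes 7 were tested, 3 rose and 0 fell, the third being the antiproliferative gene Tob1, from 1.90 and 2.12 to 3.8 and 7.82 RPKM (1.11, adjusted p = 0.0288). After rescaling limma called 0 of the 7 and voom 1. On the deposited scale 1 was called without either control library or knockout replicate 2, and 4 without knockout replicate 1. Of 20 other genes that hold hematopoietic stem cells in quiescence 2 rose and 0 fell, with a median of 0.53, beside 0.31 over all tested genes. For comparison with both lists, limma called 3.33% of all tested genes higher. Gata2, a transcription factor, rose from 18.1 and 29.9 to 30.6 and 55.3 RPKM (a log2 change of 0.80, limma adjusted p = 0.00848). Neither limma nor voom called any of the 20 after rescaling, nor did limma without either control library or knockout replicate 2, while without knockout replicate 1 it called 16. Megakaryocyte markers, many shared with stem cells, summed to 377 and 341 RPKM in control and to 488 and 780 RPKM in knockout. Limma called 3 of the 6 tested higher, and neither limma nor voom called any after rescaling. The part of megakaryocyte cells in the values above was not tested.

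**Figure D4:**
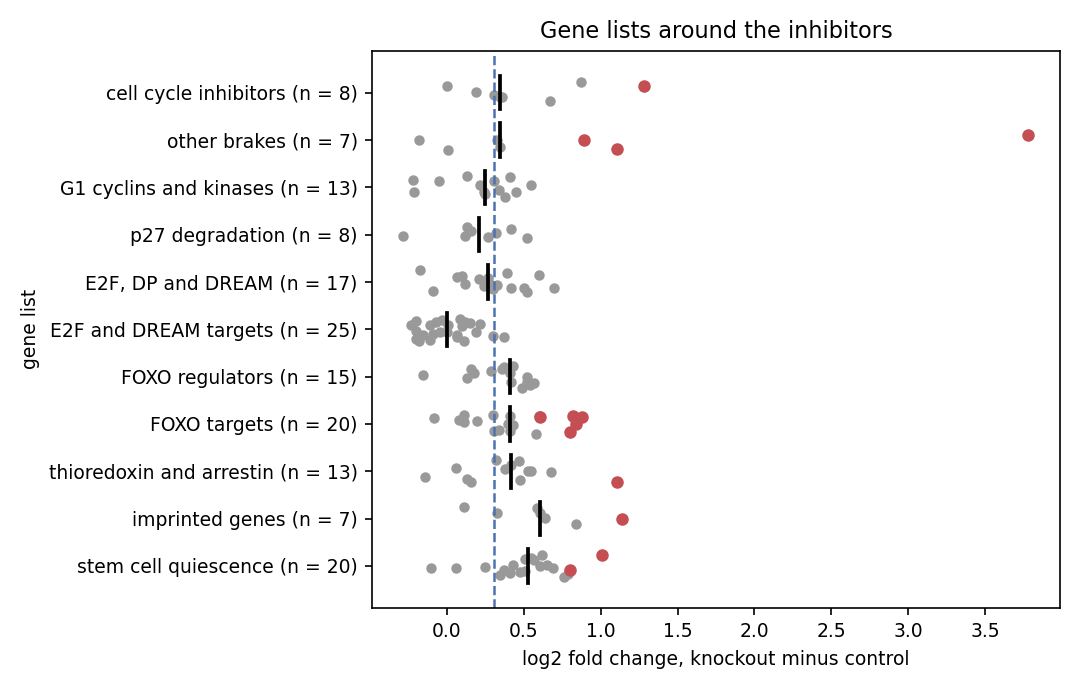
Log2 fold change (knockout minus control) of each tested gene in 11 lists, in red where the adjusted p is under 0.05; black bars are list medians and the dashed line is the 0.31 median of all tested genes. E2F and DREAM targets centre on 0.00, to the left of the dashed line, and the stem cell quiescence list on 0.53, to its right.

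Among 5977 genes averaging 5 RPKM or more, predicted and RIKEN symbols left out, those whose profile over the 4 libraries lay closest to Txnip were Fcgrt, Serpine2 and Upp1, with root mean square differences of 0.052, 0.069 and 0.085 log2 units. Closest to Cdkn1c were Dcakd, Ppp1r18 and Kat2a, at 0.037, 0.057 and 0.072. With 4 libraries that differ in scale, likeness of this kind describes the profile alone.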

How the data were processed

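RNA levels were taken from 1 deposited table with a value per gene and library. The unit, RPKM as computed by the authors before they deposited the table, was identified from the values: value times the longest transcript length in GENCODE M21 gave whole reads, within 0.1, for 98.85% to 99.39% of genes. Per the submitters' processing notes the build was mm10; the sources used here do not give aligner or counter. A gene without reads is written as 0.001 RPKM, and each gene reaches at least 1.0063 RPKM in some library. A symbol was found for 12384 IDs.

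The test was limma 3.58.1 (R 4.3.3) on log2(RPKM + 1), fitted with its trend option and genotype as sole term to 11742 genes averaging 1 RPKM or more, with Benjamini-Hochberg adjustment over all of them. Folds on this scale understate changes of low genes. The prior degrees of freedom were infinite, so the variance used for a gene is that of the trend and not its own, and genes with distant replicates get p-values that are too small. The test was checked on simulated data. Replicates differed by more than sampling noise (chi-square per degree of freedom 48.5 and 150) and each counted as a sample.

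The genes and lists were chosen with earlier results of these data known, and so was the naming rule: all inhibitors, up to 3 called genes of a list by p-value or otherwise the 2 with the smallest p-values, and the 3 most alike genes. Genes cited beyond it were chosen after their values were seen. Some genes that the rule names are not reported here. Alternatives were TMM-type rescaling, quantile normalization, voom on recovered reads, a pseudocount of 0.1, no filter, no trend, a replicate block and leaving out each library. Promoters were taken from RefSeq (GRCm38.p6).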

Additional observations from a re-analysis of the deposited data

How the results depend on the processing

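Txnip kept its direction in all 11 alternatives and its call in 8. It was not called after TMM-type rescaling (0.90), quantile normalization (1.27, adjusted p = 0.164) or voom on rescaled reads (0.91), and its adjusted p ranged from 1.82e-10 to 0.164. Inhibitors called higher numbered 0 under these 3 settings, 2 without the mean-variance trend (Foxo3 joining at 0.87, adjusted p = 0.0427), and 1 to 5 when a library was left out. The 5, Txnip, Foxo3, Rbl2, Cdkn2c and Cdkn2d, came without knockout replicate 1, where 54.3% of all genes were called higher.

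Under TMM-type rescaling, quantile normalization or voom, directions turned for 4 inhibitors that were not called with all libraries on the deposited scale. Cdkn2c stood at -0.14, -0.17 and -0.15 after TMM-type rescaling, quantile normalization and voom, Rbl1 at -0.34, -0.35 and -0.37, Cdkn2d at -0.02 and -0.01 after TMM-type rescaling and voom, and Rb1 at -0.02 after quantile normalization. The log2 scale factors divided out by TMM-type rescaling were -0.16 and -0.23 in control and -0.03 and 0.42 in knockout replicates 1 and 2. That lowers the knockout libraries relative to control, so small positive fold changes can turn. Why the libraries differ in scale was not tested. Leaving out a library gave ranges of 1.08 to 1.48 for Txnip, 0.78 to 0.97 for Foxo3, 0.30 to 1.05 for Rbl2, -0.32 to 0.33 for Rbl1, -0.17 to 0.55 for Cdkn2c, 0.06 to 0.66 for Cdkn2d, 0.13 to 0.49 for Rb1, 0.22 to 0.48 for Cdkn1b, -0.07 to 0.61 for Cdkn1c and -0.57 to 0.10 for Ccnb1.

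All genes called higher and lower numbered 391 and 101, 0 and 0 after TMM-type rescaling and after quantile normalization, 34 and 13 by voom, 373 and 52 without the trend, and 27 to 6375 and 5 to 530 when a library was left out. Same-numbered libraries deviated together with a correlation of 0.07 across genes, and no source says that a number marks a shared animal or day. With the replicate block the counts were 175 and 64, and called genes fell to 1 among the other brakes, the FOXO targets and the stem cell quiescence genes and to 0 among the Txnip partners and imprinted genes. Among the 9 inhibitors Cdkn1c had the fewest reads, 39 to 147 a library, and its control values differed by more than their counting intervals.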
